A study of Mus musculus with 20 samples.

Results

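The comparison set the aortas of 28-month-old mice lacking Ppara in smooth muscle cells (genotype label Pparadelta_SMC, here the knockout) against those of 28-month-old Pparafl/fl mice, which carry the conditional allele without the deletion. It held 10 of the 20 libraries of the series, 5 of the knockout and 5 of Pparafl/fl, chosen by genotype and age alone. All animals were C57BL/6, and each library was made from RNA of entire aorta. The other 10 libraries came from the same genotypes at 2 months and served only to ask whether the genotype difference depended on age. The line that drives the deletion and the deleted exon are not given in the sources used here. The labels do not say whether replicates are separate animals, so p-values measure the spread between these libraries. Entire aorta also holds endothelium, adventitia, fat and blood cells, in which a deletion in smooth muscle leaves the gene intact.

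PPARα, the product of Ppara, is a nuclear receptor that binds fatty acids and their derivatives, pairs with a retinoid X receptor (RXR) and activates genes of fatty acid uptake and of mitochondrial and peroxisomal oxidation. Its DNA element is a direct repeat of a short half-site with a single base between the repeats. In vessels it is also known for dampening inflammatory gene expression in smooth muscle and endothelium.

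Promoter sequences are given for a PPARα target and for genes of the sarcomere. They are windows of 250 bases that end at the transcription start, from RefSeq on GRCm38.p6, written in the direction of the gene. Cidec encodes a lipid droplet protein and is shown as a PPARα target whose window holds a match to the direct repeat. Capitals mark that match, the half-sites AGGNNA and AGGNCA with a single base between them (N is any base), searched on both strands, which overlaps no E-box match. The Cidec window is chr6:113435761-113436010, minus strand.

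Cidec: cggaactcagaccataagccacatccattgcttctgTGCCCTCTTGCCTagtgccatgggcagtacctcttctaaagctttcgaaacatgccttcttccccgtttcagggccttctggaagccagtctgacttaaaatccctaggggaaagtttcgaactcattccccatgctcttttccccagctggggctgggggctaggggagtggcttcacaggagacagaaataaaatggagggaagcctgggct

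By gene, these letters were found for 247 of 27025 genes with a window of the same length and for 3 of the 38 PPARα targets that had one. By window, they were found in 0.776% of all 32851 and in 6.52% of the 46 of PPARα targets. Cidec was 229, 342, 232, 177 and 431 CPM in the knockout, and 312, 272, 318, 227.4 and 379.6 CPM in Pparafl/fl (CPM, counts scaled by TMM to a library of 1000000, in replicates 1 to 5). The groups overlapped throughout, and the log2 fold change was -0.10 (standard error, SE, 0.25).

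The next windows belong to genes of the sarcomere, shown because skeletal muscle markers formed the list with the lowest median fold change. Tnnc2 is fast skeletal troponin C (chr2:164779735-164779984, minus strand). Myl1 is a myosin light chain of fast fibres (chr1:66945057-66945306, minus strand). Tmod4 is a tropomodulin that caps the thin filament (chr3:95124264-95124513, plus strand). Capitals mark E-boxes, CANNTG, the core letters bound by basic helix-loop-helix factors. The pattern CANNTG reads the same on both strands, whereas a site such as CACCTG or CATCTG does not.

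Tnnc2: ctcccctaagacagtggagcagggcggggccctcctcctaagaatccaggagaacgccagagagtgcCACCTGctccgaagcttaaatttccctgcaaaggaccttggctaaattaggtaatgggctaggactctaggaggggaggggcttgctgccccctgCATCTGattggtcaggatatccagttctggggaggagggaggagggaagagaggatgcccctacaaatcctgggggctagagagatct
Myl1: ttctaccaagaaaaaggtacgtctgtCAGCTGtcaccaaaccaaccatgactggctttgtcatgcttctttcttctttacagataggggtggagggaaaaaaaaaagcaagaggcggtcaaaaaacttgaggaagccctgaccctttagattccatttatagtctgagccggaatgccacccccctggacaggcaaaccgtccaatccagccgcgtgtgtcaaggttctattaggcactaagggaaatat
Tmod4: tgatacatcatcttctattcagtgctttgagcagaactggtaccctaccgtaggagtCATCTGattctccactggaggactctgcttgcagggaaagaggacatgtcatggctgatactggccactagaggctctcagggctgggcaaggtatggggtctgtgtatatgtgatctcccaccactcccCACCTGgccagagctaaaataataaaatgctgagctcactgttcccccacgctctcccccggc

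E-box letters occurred in 66.2% of all windows and in 78.9% of the 19 windows of skeletal muscle markers. By gene, 18729 of 27025 held them, and 14 of the 17 skeletal muscle marker genes that had a window. A match describes the sequence and is not evidence of a bound site.

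Total counts lay between 58794050 and 79385413 in the knockout and between 50046288 and 71172745 in Pparafl/fl. Mitochondrially encoded genes took 7.55% of the counts of Pparafl/fl replicate 3 and from 0.23% to 0.91% of those of the other 9 libraries. Defining smooth muscle genes were counted in every library, at lower levels than at 2 months in both genotypes. Acta2, smooth muscle actin, averaged 95.9 ± 43.9 CPM in the knockout and 99.0 ± 61.8 CPM in Pparafl/fl at 28 months (SD, n = 5 each). On the same scale over 20 libraries it averaged 1583 ± 1749 CPM in the knockout and 2309 ± 957 CPM in Pparafl/fl at 2 months (SD, n = 5 each). In whole tissue, fewer cells of a type and less RNA per cell cannot be told apart.

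The targeted gene did not differ between the genotypes beyond its spread. Ppara (ENSMUSG00000022383, chromosome 15, 85734983 to 85802819, GRCm38) was 61.0, 97.0, 79.2, 51.0 and 96.7 CPM in the knockout, and 92.9, 76.6, 28.3, 89.8 and 68.6 CPM in Pparafl/fl. The ranges overlapped, and the library with the lowest value was Pparafl/fl replicate 3. The log2 fold change was 0.11 (SE 0.31), with an adjusted p of 1.00 in edgeR's quasi-likelihood test, and without that library it was -0.09. Counts over the entire gene therefore gave no check of the genotype labels.

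No gene passed the test at 28 months. Of 21468 genes tested by edgeR, 0 (0%) had a Benjamini-Hochberg adjusted p under 0.05, and the lowest adjusted p was 0.801. An unadjusted p under 0.05 was found for 689 genes (3.21%), where chance gives 1073. Of these, 264 were higher (1.23%) and 425 lower (1.98%) in the knockout. The groups did not overlap for 54 genes with the knockout higher (0.252%) and for 69 with the knockout lower (0.321%). The biological coefficient of variation was 0.677, so replicates of a genotype differed widely. Limma voom with quality weights also called 0 genes, and 1121 had an unadjusted p under 0.05. The DESeq2 Wald test called 113 genes higher and 123 lower, 0.892% of 26461. Of those 236 genes, 154 have a single exon, 157 were at 0 counts in all 5 libraries of a genotype, and 66 have several exons and a count in every library. Over all 55421 deposited genes, 22323 have a single exon.

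Among genes higher in the knockout, Flrt3, Gprasp2, Neat1, Alox15, Msn and Slc35f4 had the smallest p of those with at least 50 counts on average. None of them passed the adjusted threshold. Flrt3 (ENSMUSG00000051379, chromosome 2, 140650914 to 140671469), a leucine-rich transmembrane protein of cell adhesion, had the lowest p of all genes. It was 18.1, 13.2, 12.4, 17.6 and 16.8 CPM in the knockout, and 6.86, 5.59, 4.77, 6.04 and 6.45 CPM in Pparafl/fl. Every knockout library lay above every Pparafl/fl library. The log2 fold change was 1.39 (SE 0.22), or 2.63-fold, with an unadjusted p of 5.28e-05, an adjusted p of 0.801 in edgeR and one of 6.80e-10 in DESeq2. Gprasp2, a sorting protein associated with G protein-coupled receptors, was 13.1, 5.06, 15.9, 9.31 and 4.42 CPM in the knockout, and 1.73, 2.58, 0.867, 2.33 and 2.38 CPM in Pparafl/fl. Its groups were also apart, with a log2 fold change of 2.27 (SE 0.46). Alox15, an arachidonate lipoxygenase, was 10.7, 36.0, 10.7, 41.6 and 81.2 CPM in the knockout, and 4.80, 7.54, 4.65, 9.14 and 2.40 CPM in Pparafl/fl. Here too the groups did not overlap, and the knockout libraries were themselves widely spread.

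Msn encodes moesin, a linker between the membrane and actin. It was 287, 448, 448, 376 and 516 CPM in the knockout, and 224, 249.9, 144, 290.2 and 230.5 CPM in Pparafl/fl. Only knockout replicate 1 fell within the Pparafl/fl range, and the log2 fold change was 0.87 (SE 0.22). Slc35f4, a member of a solute carrier family, averaged 2.83 ± 1.15 CPM in the knockout and 0.913 ± 0.316 CPM in Pparafl/fl (SD, n = 5 each), again with a single library overlapping. Neat1, the long noncoding RNA of paraspeckles and a single-exon gene, was 679, 1269, 526, 796 and 120.4 CPM in the knockout, and 22.9, 68.5, 60.0, 18.02 and 151 CPM in Pparafl/fl. Knockout replicate 5 lay within the Pparafl/fl range, and the other 4 knockout libraries were above it.

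Among genes lower in the knockout, Ctdsp1, March8, Tmod4, Rtkn2, Myl1 and Rpl3l had the smallest p by the same rule. Tmod4, Myl1 and Rpl3l are genes of striated muscle. Ctdsp1 (ENSMUSG00000026176, chromosome 1, 74391509 to 74397285), a small phosphatase of the tail of RNA polymerase II, was 44.4, 53.1, 46.5, 50.5 and 40.3 CPM in the knockout, and 135, 90.5, 66.7, 83.4 and 112 CPM in Pparafl/fl. The groups were apart, with all 5 knockout libraries close together. The log2 fold change was -1.05 (SE 0.20), with an unadjusted p of 0.000278, an adjusted p of 1.00 in edgeR and one of 0.000609 in DESeq2. March8, a ubiquitin ligase of membranes, was 33.5, 42.2, 82.4, 41.8 and 33.7 CPM in the knockout, and 98.0, 124, 142, 87.1 and 99.95 CPM in Pparafl/fl. Its groups were apart as well, and knockout replicate 3 was nearest to Pparafl/fl. Rtkn2, rhotekin 2, was 0.196, 0.531, 0.498, 0.330 and 0.502 CPM in the knockout, and 9.85, 3.86, 2.03, 1.62 and 0.536 CPM in Pparafl/fl. Its lowest Pparafl/fl library was just above the highest knockout library. Rpl3l, a ribosomal protein paralogue of muscle, was 4.36, 1.34, 7.50, 5.33 and 2.86 CPM in the knockout, and 9.85, 12.4, 12.2, 40.1 and 27.6 CPM in Pparafl/fl. All 5 knockout values were below all 5 Pparafl/fl values.

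**Figure D1:**
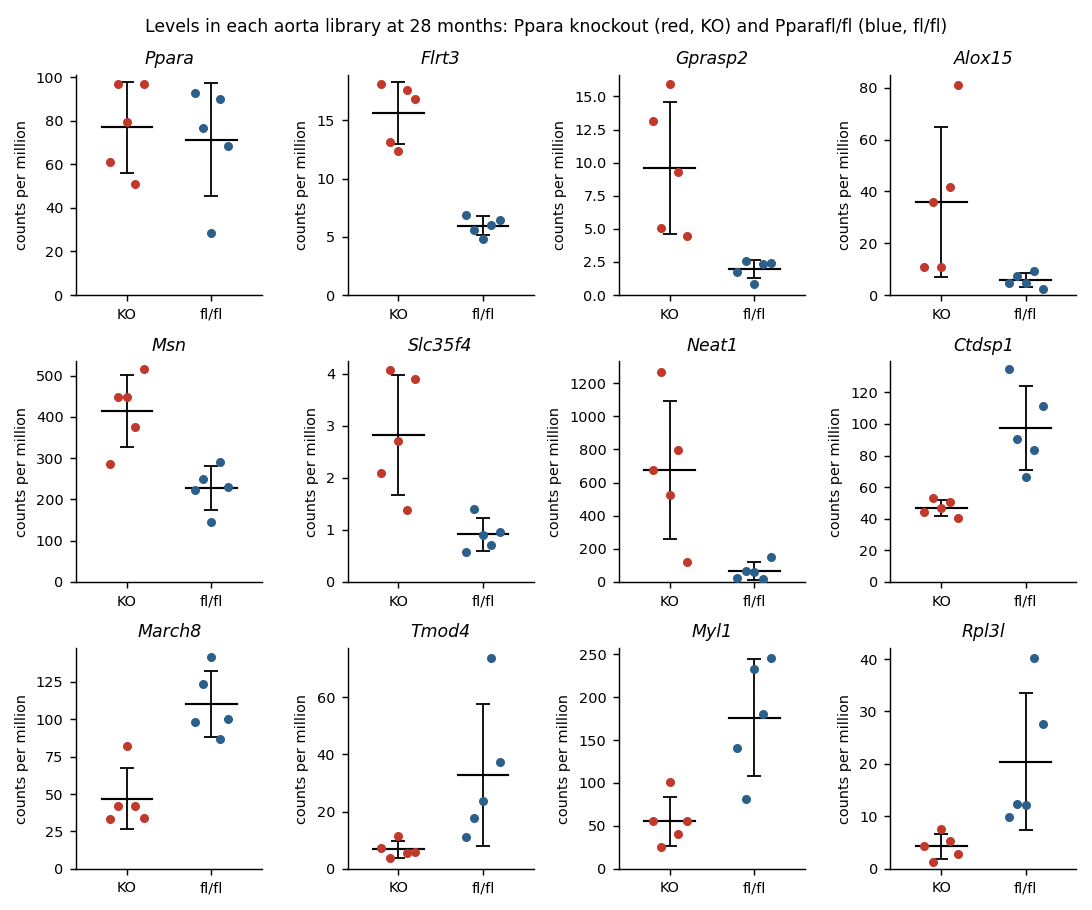
CPM of 12 genes in each library at 28 months (linear axes), knockout (red, KO) left of Pparafl/fl (blue, fl/fl); each point is a library, the line is the mean and the whiskers are 1 SD (n = 5). Ppara overlaps, Flrt3 lies between 12.4 and 18.1 CPM in the knockout and between 4.77 and 6.86 CPM in Pparafl/fl, and Ctdsp1 is lower in all 5 knockout libraries.

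PPARα targets gave 0 of 48 calls by edgeR, from a list of 51 of which 48 passed the filter on low counts. Of the 48, 1 was lower at an unadjusted p under 0.05, Txnip, where 1.98% of all genes tested were lower at such a p. The log2 fold change was under 0 for 36 of the 48, with a median of -0.18, beside 48.5% under 0 and a median of 0.01 over all genes tested. Summed over the list, the libraries held 23130, 24300, 16410, 12390 and 21310 CPM in the knockout, and 36160, 19940, 15740, 14910 and 24830 CPM in Pparafl/fl. Pparafl/fl replicate 1 stood above the others, and without it the median was 0.13, with 19 of 48 under 0. Limma voom, which weights libraries, gave a median of 0.03, with 21 of 48 under 0. The sign of the median thus differed with and without that library. With the mean level of the skeletal muscle markers as a covariate the median was -0.60, with 40 of 48 under 0 and 4 at an unadjusted p under 0.05, all lower. With that of the adipocyte markers it was -0.06, with 28 of 48 under 0. The adipocyte markers include Fabp4, Lpl and Cidec, which are also PPARα targets. That fit therefore partly adjusts the targets for themselves, and its median cannot be read as independent of them. The skeletal muscle level was itself mostly lower in the knockout, so a fit with it cannot tell genotype and muscle content apart. DESeq2, which tested all 51, also called 0 of them. Fabp1, Cyp4a14 and Fgf21, known as targets in liver, did not pass the filter on low counts.

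Fatty acid uptake and binding had 3 of 6 genes under 0, from -0.80 to 0.22. Fabp3, the fatty acid binding protein of muscle and heart, was the lowest of them (SE 0.72). Cd36, the fatty acid translocase, was 2007, 2328, 1898, 1112 and 1995 CPM in the knockout, and 2171, 2153, 838, 1287 and 2085 CPM in Pparafl/fl. Lpl, the lipase that frees fatty acids from lipoproteins, averaged 3136 ± 611 CPM in the knockout and 2694 ± 595 CPM in Pparafl/fl (SD, n = 5 each). For Cd36 and Lpl the groups overlapped. Fabp4, the adipocyte binding protein and also a target, had a log2 fold change of -0.03 (SE 0.45). The 6 genes of fatty acid activation and the carnitine shuttle all had log2 fold changes under 0, from -0.49 to -0.13. Cpt1b, the muscle form of the carnitine palmitoyltransferase that admits fatty acids to mitochondria, was 544, 533, 304, 211 and 345 CPM in the knockout, and 840.3, 298, 205, 446 and 459 CPM in Pparafl/fl. Cpt1a, the liver form, averaged 95.3 ± 41.0 CPM in the knockout and 109 ± 27.6 CPM in Pparafl/fl (SD, n = 5 each). The groups overlapped for Cpt1b, and the means of Cpt1a differed by less than either SD. Slc25a20, the carnitine carrier of the inner membrane, and Cpt2, which reforms acyl-CoA inside it, had the most negative values of the group, -0.49 (SE 0.53) and -0.46 (SE 0.53).

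Mitochondrial β-oxidation had 8 of 10 genes under 0, and 0 with an unadjusted p under 0.05. Acadl, the long-chain acyl-CoA dehydrogenase, was 907, 802, 469, 451 and 589 CPM in the knockout, and 2281, 666, 765, 394 and 975 CPM in Pparafl/fl. Hadha, a subunit of the trifunctional protein, was 1175, 739, 362, 341 and 679 CPM in the knockout, and 2450, 499.7, 452, 366 and 896 CPM in Pparafl/fl. In both genes Pparafl/fl replicate 1 was the highest library and the rest of the groups overlapped. Etfdh, which passes electrons from the dehydrogenases to the respiratory chain, had the most negative log2 fold change of the group, -0.73 (SE 0.47). Ucp2 and Ucp3, mitochondrial uncoupling proteins, were the 2 genes above 0, at 0.20 and 0.07.

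Peroxisomal β-oxidation had 5 of 7 genes under 0. Ehhadh, the bifunctional enzyme of the pathway, was 40.2, 53.4, 76.6, 21.4 and 44.2 CPM in the knockout, and 41.6, 111, 149, 44.8 and 66.7 CPM in Pparafl/fl. Its groups overlapped, and the log2 fold change of -0.81 (SE 0.42) had an unadjusted p of 0.0803. Hsd17b4, the other bifunctional enzyme, had a log2 fold change of -0.35 (SE 0.37). Of the thioesterases, Acot1 had a log2 fold change of -0.16 (SE 0.53) and Acot2 one of -0.65 (SE 0.56). Of the ω-oxidation enzymes, Cyp4a10 was at -0.97 (SE 1.05) and Cyp4a12a at 0.38 (SE 0.81), both with wide errors.

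Signals and regulators held the single target with an unadjusted p under 0.05. Txnip, a thioredoxin-binding protein that restrains glucose uptake, was 657, 1294, 1074, 674 and 806 CPM in the knockout, and 1772, 1647, 1152, 872 and 1438 CPM in Pparafl/fl. Its groups overlapped, and its log2 fold change was -0.61 (SE 0.26, unadjusted p of 0.0399, adjusted p of 1.00 in edgeR). Pdk4, the kinase that holds back pyruvate oxidation, averaged 698 ± 246 CPM in the knockout and 981 ± 626 CPM in Pparafl/fl (SD, n = 5 each). Angptl4, a secreted inhibitor of lipoprotein lipase, averaged 122 ± 33.5 CPM in the knockout and 125 ± 82.6 CPM in Pparafl/fl (SD, n = 5 each). Among lipid droplet genes Plin2, which coats the droplets, was 566, 391, 188, 193 and 403 CPM in the knockout, and 1399, 188, 135, 173 and 411 CPM in Pparafl/fl. As for Acadl and Hadha, the highest library was Pparafl/fl replicate 1. Pnpla2, the first lipase of stored triglyceride, had a log2 fold change of -0.33 (SE 0.23). Vnn1, a pantetheinase, was at -0.62 (SE 0.44), and Creb3l3, a transcription factor of hepatic lipid metabolism, at 1.09 (SE 0.93).

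**Figure D2:**
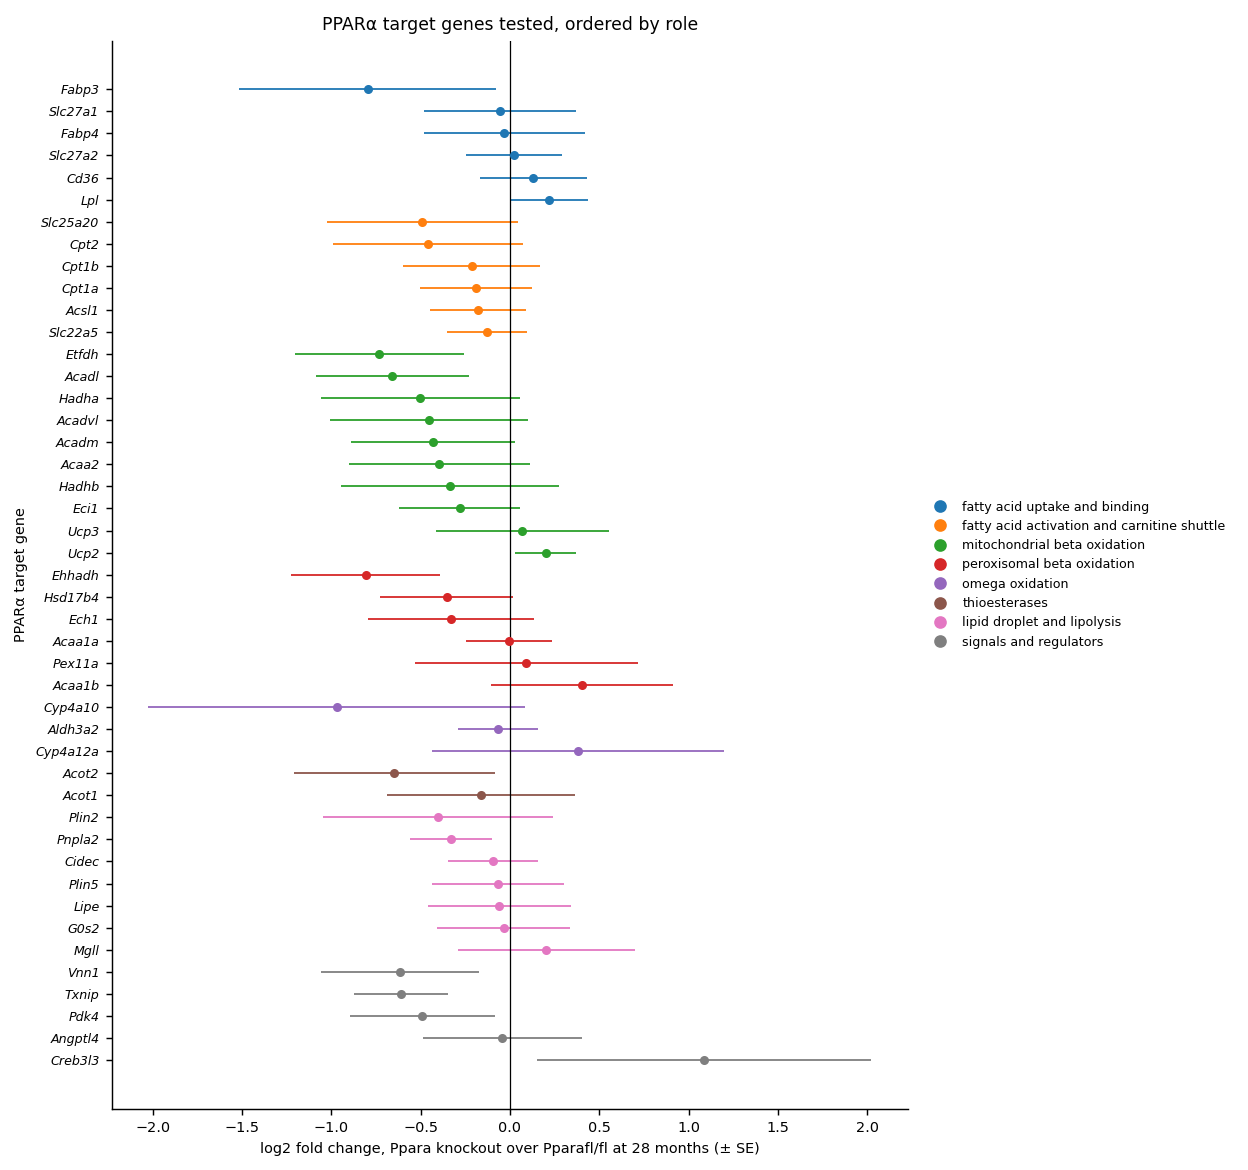
Log2 fold change of the knockout over Pparafl/fl at 28 months for 45 of the 48 PPARα targets tested, each with a whisker of 1 SE and coloured by role. The values run from -0.97 to 1.09, 35 of the 45 are under 0 and none passed the adjusted threshold.

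The receptors, RXR partners and cofactors gave 0 of 18 calls. Pparg, the receptor of adipocytes, averaged 203 ± 35.0 CPM in the knockout and 234 ± 54.7 CPM in Pparafl/fl (SD, n = 5 each). Ppard, the widely expressed receptor, averaged 24.5 ± 7.05 CPM in the knockout and 25.9 ± 2.27 CPM in Pparafl/fl (SD, n = 5 each). Rxra, an RXR partner, had a log2 fold change of 0.14 (SE 0.29), and the corepressor Ncor1 one of -0.08 (SE 0.14). Lpin1, a phosphatidate phosphatase that also coactivates PPARα, was 559, 525, 442, 355 and 646 CPM in the knockout, and 959, 680.4, 981, 518 and 536 CPM in Pparafl/fl. It had the single unadjusted p under 0.05 in the list, 0.0491, with a log2 fold change of -0.54 and overlapping groups. Ppargc1a, a coactivator of mitochondrial gene expression, averaged 66.8 ± 17.6 CPM in the knockout and 109.6 ± 90.6 CPM in Pparafl/fl (SD, n = 5 each).

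Oxidative phosphorylation genes had log2 fold changes under 0 in 33 of 33 cases, with a median of -0.42, and 0 had an unadjusted p under 0.05. Over all genes tested, 48.5% were under 0. Genes of a list can vary together between libraries, so the 33 are not independent observations. Atp5b, the catalytic subunit of ATP synthase, was 2983, 1938, 1331, 1408 and 1957 CPM in the knockout, and 4866, 1931, 1615, 1577 and 2494 CPM in Pparafl/fl. Sdhd, an anchor subunit of succinate dehydrogenase, had the smallest p of the list, 0.0727, at a log2 fold change of -0.82 (SE 0.41). Pparafl/fl replicate 1 was again highest for Atp5b. Without that library the median was 0.02, with 15 of 33 under 0. With the skeletal muscle covariate it was -0.92, with 32 of 33 under 0 and 2 at an unadjusted p under 0.05. Limma voom gave -0.18, with 28 of 33 under 0. DESeq2 called 0 of the 33.

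Skeletal muscle markers were lower in the knockout in 22 of 22 cases, with log2 fold changes from -2.81 to -1.67 and a median of -2.30. An unadjusted p under 0.05 was reached by 20 of the 22, where 1.98% of all genes reached it in that direction. None passed the adjusted threshold of edgeR. DESeq2 called 8 of the 22, beside 0.892% of the 26461 genes it tested, in either direction. Genes of a tissue share its amount in each library, so the 22 are not independent observations. Summed over the list, the libraries held 11630, 3861, 27410, 10830 and 7314 CPM in the knockout, and 13100, 26930, 44390, 109900 and 55790 CPM in Pparafl/fl. Knockout replicate 3 exceeded Pparafl/fl replicates 1 and 2, and the other 4 knockout libraries lay below all 5 of Pparafl/fl. With any one library left out, 22 of 22 had log2 fold changes under 0, with medians between -2.74 and -1.78. Without Pparafl/fl replicate 4, the highest library, 11 of the 22 had an unadjusted p under 0.05. In a fit of all 20 libraries 6 had.

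Ttn, the giant spring of the sarcomere, was 8916, 3088, 19850, 8408 and 4556 CPM in the knockout, and 8441, 20410, 31210, 73900 and 35530 CPM in Pparafl/fl. Knockout replicates 1 and 3 were above Pparafl/fl replicate 1, and no knockout library was above the other 4. Tnnc2, the fast troponin C whose promoter window is given, was 7.98, 2.74, 24.9, 5.45 and 8.93 CPM in the knockout, and 32.4, 26.0, 50.04, 75.0 and 75.2 CPM in Pparafl/fl. Myh7, the slow myosin heavy chain, was 36.9, 12.5, 27.1, 18.2 and 3.57 CPM in the knockout, and 44.4, 234, 43.2, 210.4 and 56.3 CPM in Pparafl/fl. Tnnc2 and Myh7 were the 2 of 22 markers whose groups did not overlap, beside 0.321% of all genes tested with the knockout lower. Myh4, a fast myosin heavy chain, was 35.3, 70.8, 908, 353 and 799.8 CPM in the knockout, and 995, 176, 1564, 5175 and 3923 CPM in Pparafl/fl. Knockout replicates 3, 4 and 5 were above Pparafl/fl replicate 2 and below the other 4. Ckm, muscle creatine kinase, averaged 329 ± 289 CPM in the knockout and 1253 ± 951 CPM in Pparafl/fl (SD, n = 5 each).

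Myl1, the fast myosin light chain, was 56.0, 25.2, 101, 40.1 and 55.1 CPM in the knockout, and 140.4, 80.9, 233, 181 and 246 CPM in Pparafl/fl. Its log2 fold change was -1.67 (SE 0.39, unadjusted p of 0.00151). Tmod4, which was not on the list, was 7.34, 3.82, 11.6, 5.48 and 5.81 CPM in the knockout, and 10.9, 17.7, 23.8, 73.6 and 37.4 CPM in Pparafl/fl. In both genes knockout replicate 3 was above the lowest Pparafl/fl library, and the groups were otherwise apart. Tnni1, slow skeletal troponin I and named after its values were seen, averaged 0.827 ± 0.551 CPM in the knockout and 4.62 ± 3.14 CPM in Pparafl/fl (SD, n = 5 each), with groups that did not overlap. Of the 15 cardiomyocyte markers Myl2 and Nppb, a ventricular light chain and a natriuretic peptide, were lower at an unadjusted p under 0.05. Over all genes tested, 1.98% were lower at such a p. The cardiomyocyte list median was -0.05 (-0.56 without knockout replicate 3, 0.45 without Pparafl/fl replicate 3). Myh6, the cardiac myosin heavy chain, averaged 624 ± 599 CPM in the knockout and 674 ± 639 CPM in Pparafl/fl (SD, n = 5 each).

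**Figure D3:**
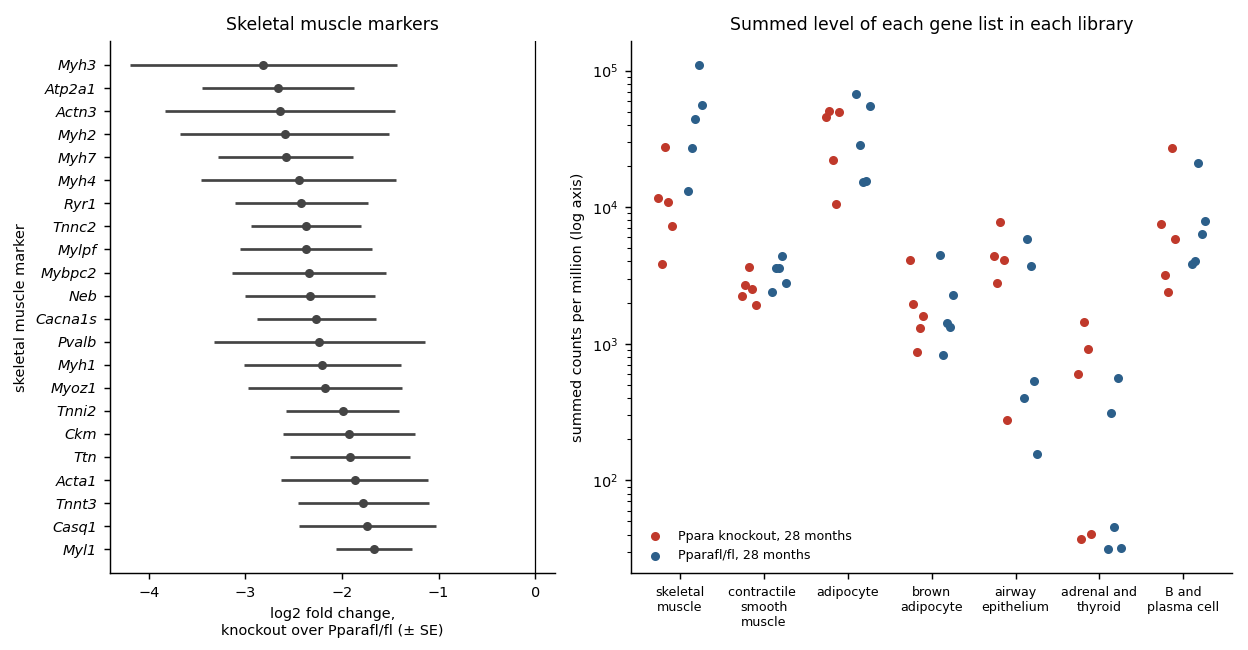
Left, log2 fold change of the knockout over Pparafl/fl with 1 SE for the 22 skeletal muscle markers, all under 0. Right, summed CPM of 7 gene lists in each library on a log axis, knockout (red) left of Pparafl/fl (blue); skeletal muscle sums run from 3861 to 27410 CPM in the knockout and from 13100 to 109900 CPM in Pparafl/fl, and adrenal and airway sums vary widely within both genotypes.

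Contractile smooth muscle genes gave 0 of 27 calls and a median of -0.04 (-0.23 without knockout replicate 3, 0.01 without Pparafl/fl replicate 2). Tpm2, Tpm1 and Mylk4, which striated muscle also expresses, had an unadjusted p under 0.05, and all 3 were lower. Over all genes tested, 1.98% were lower at such a p. Tpm2, β-tropomyosin, was 61.8, 26.5, 180.2, 41.9 and 46.9 CPM in the knockout, and 95.8, 147, 390.3, 601 and 318 CPM in Pparafl/fl. Its highest knockout library, replicate 3, was also the knockout library with the highest skeletal muscle sum. With the mean level of the skeletal muscle markers as a covariate, the log2 fold change of Tpm2 was -0.21 against -2.12 without it, and 0 of the 27 genes had an unadjusted p under 0.05. That level was itself mostly lower in the knockout, so this fit cannot tell genotype and muscle content apart. DESeq2 called Tpm2 alone of the 27. Acta2 was 78.8, 137, 167, 69.7 and 58.6 CPM in the knockout, and 99.1, 208, 117, 71.6 and 31.2 CPM in Pparafl/fl. Myh11, the smooth muscle myosin heavy chain, was 124, 263, 249.9, 156 and 98.9 CPM in the knockout, and 114, 229, 137, 112 and 62.9 CPM in Pparafl/fl. Tagln, transgelin, averaged 44.4 ± 20.2 CPM in the knockout and 36.4 ± 15.1 CPM in Pparafl/fl (SD, n = 5 each). These 3 markers of differentiated smooth muscle overlapped between the genotypes.

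Matrix genes gave 0 of 39 calls and a median of -0.11 (-0.18 without Pparafl/fl replicate 3, 0.06 without Pparafl/fl replicate 2). With the skeletal muscle covariate the median was -0.42. Eln, elastin, averaged 32.7 ± 8.68 CPM in the knockout and 40.9 ± 12.8 CPM in Pparafl/fl (SD, n = 5 each). Col1a1, a chain of type I collagen, averaged 61.8 ± 15.1 CPM in the knockout and 75.7 ± 34.7 CPM in Pparafl/fl (SD, n = 5 each). Loxl1, an enzyme that cross-links elastin, had the single unadjusted p under 0.05, 0.0275. It averaged 19.1 ± 6.93 CPM in the knockout and 10.4 ± 4.13 CPM in Pparafl/fl (SD, n = 5 each), a log2 fold change of 0.88 (SE 0.35). Fn1, fibronectin, averaged 342 ± 194 CPM in the knockout and 217 ± 57.6 CPM in Pparafl/fl (SD, n = 5 each) and was high in knockout replicates 2 and 5. Hspg2, the basement membrane proteoglycan perlecan, averaged 785 ± 292 CPM in the knockout and 612 ± 237 CPM in Pparafl/fl (SD, n = 5 each).

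Matrix proteases and their inhibitors gave 0 of 21 calls, osteochondrogenic genes 0 of 13, vascular tone 0 of 16, and transforming growth factor and bone morphogenetic protein signalling 0 of 17. None of these 4 lists held a gene with an unadjusted p under 0.05. Ctsk, an elastolytic cathepsin, averaged 7.96 ± 1.40 CPM in the knockout and 5.47 ± 1.31 CPM in Pparafl/fl (SD, n = 5 each). Mgp, the matrix Gla protein that inhibits calcification, averaged 41.9 ± 21.4 CPM in the knockout and 25.7 ± 8.84 CPM in Pparafl/fl (SD, n = 5 each), a log2 fold change of 0.70 (SE 0.35). Pde5a, which degrades cyclic GMP, was at 0.50 (SE 0.33), and Gucy1a1, a subunit of the guanylate cyclase that nitric oxide activates, at -0.36 (SE 0.47). Eng, endoglin, a co-receptor of bone morphogenetic proteins, was at 0.46 (SE 0.25), and Bmpr2, their type II receptor, at -0.40 (SE 0.46).

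Antigen presentation genes had log2 fold changes over 0 in 17 of 17 cases, with a median of 0.36, where 48.5% of all genes were under 0. Genes of a list can vary together between libraries, so the 17 are not independent observations. An unadjusted p under 0.05 was found for 1 of them, where 1.23% of all genes were higher at such a p. That gene, Psmb8, a subunit of the immunoproteasome, was 76.6, 34.1, 40.0, 77.9 and 49.4 CPM in the knockout, and 40.4, 37.8, 25.3, 31.1 and 45.4 CPM in Pparafl/fl. Knockout replicates 1, 4 and 5 were above all Pparafl/fl libraries, and replicates 2 and 3 were within their range. Without Pparafl/fl replicate 3, the library with the high mitochondrial share, 11 of 17 were over 0, and limma voom put 12 of 17 there, with a median of 0.08. With the skeletal muscle covariate the median was 0.70, with 17 of 17 over 0. H2-D1, a class I heavy chain, averaged 826 ± 116 CPM in the knockout and 750.1 ± 259.8 CPM in Pparafl/fl (SD, n = 5 each), and H2-DMa, which loads class II molecules, averaged 32.0 ± 16.5 CPM in the knockout and 20.6 ± 7.53 CPM in Pparafl/fl (SD, n = 5 each). Lyz2, the lysozyme of macrophages, was 2218, 852, 1090, 2522 and 1113 CPM in the knockout, and 632, 884, 1001, 1048 and 877 CPM in Pparafl/fl. Knockout replicate 2 lay inside the Pparafl/fl range and the other 4 above it, at a log2 fold change of 0.81 (SE 0.32, unadjusted p of 0.0271). Macrophage markers as a list had 13 of 19 over 0 and a median of 0.24 (-0.12 without knockout replicate 4, 0.31 without Pparafl/fl replicate 3).

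Inflammation and adhesion genes gave 0 of 25 calls. Icam1, a leukocyte adhesion receptor, was 62.2, 43.3, 35.9, 110.1 and 38.9 CPM in the knockout, and 35.3, 39.0, 22.1, 35.8 and 39.7 CPM in Pparafl/fl. It was higher with an unadjusted p of 0.0394, and the groups overlapped. Vcam1, another such receptor, averaged 165 ± 148 CPM in the knockout and 158 ± 45.7 CPM in Pparafl/fl (SD, n = 5 each), and its log2 fold change was 0.06 with all libraries and -0.66 without knockout replicate 4. Ccl5, a chemokine for T cells, averaged 17.1 ± 16.9 CPM in the knockout and 6.84 ± 4.39 CPM in Pparafl/fl (SD, n = 5 each). The interferon response gave 0 of 29 calls, with Irgm1, an immunity-related GTPase, at a log2 fold change of 1.17 (SE 0.41) and Ifit2, an antiviral protein, at -1.57 (SE 0.69).

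Senescence genes gave 0 of 19 calls and 0 with an unadjusted p under 0.05. Cdkn1a, the cell cycle inhibitor p21, averaged 62.4 ± 13.5 CPM in the knockout and 73.7 ± 32.5 CPM in Pparafl/fl (SD, n = 5 each). Cdkn2a, which encodes p16 and p19, averaged 1.66 ± 1.00 CPM in the knockout and 1.19 ± 0.581 CPM in Pparafl/fl (SD, n = 5 each). Tnf and Il1b, inflammatory cytokines, had log2 fold changes of opposite sign, 1.04 (SE 0.59) and -1.01 (SE 0.59). Sirtuins and longevity factors gave 0 of 17 calls. An unadjusted p under 0.05 was found for 3 of the 17, all lower, beside 1.98% of all genes lower at such a p. Nampt, which makes a precursor of NAD, was 310.3, 381, 209.6, 239 and 224 CPM in the knockout, and 388, 389, 516, 334 and 362 CPM in Pparafl/fl. Knockout replicate 2 was within the Pparafl/fl range and the other 4 below it, at a log2 fold change of -0.54 (SE 0.20, unadjusted p of 0.0226). Prkaa2, a catalytic subunit of the AMP-activated kinase, had a log2 fold change of -0.79 (SE 0.33). Kl, klotho, ranged from 0.131 to 0.638 CPM in the knockout and from 0 to 11.9 CPM in Pparafl/fl, and Pparafl/fl replicate 1 held the highest value.

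Clock genes gave 0 of 19 calls. Beside 1.98% of all genes, 3 of the 19 were lower at an unadjusted p under 0.05, and none was higher at such a p. They include the nuclear receptor Rora, at a log2 fold change of -1.39 (SE 0.56), and the repressor Nfil3, at -1.04 (SE 0.47). Glycolysis and glucose uptake gave 0 of 19 calls. Pfkm, muscle phosphofructokinase, was 144, 140.3, 238, 113 and 160.4 CPM in the knockout, and 206, 262, 241, 783 and 506 CPM in Pparafl/fl. Pparafl/fl replicate 4 was highest, as it was for the skeletal muscle sum. The log2 fold change was -1.33 (SE 0.38, unadjusted p of 0.00555), and -0.13 with the skeletal muscle covariate, which cannot be told apart from genotype here.

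Cholesterol synthesis gave 0 of 19 calls. Srebf2, its main transcription factor, was 167, 159.7, 169.5, 118 and 163 CPM in the knockout, and 131, 130, 116, 115 and 119 CPM in Pparafl/fl. Knockout replicate 4 was within the Pparafl/fl range and the other 4 were above it, at a log2 fold change of 0.34 (SE 0.14, unadjusted p of 0.0315). Fatty acid synthesis gave 0 of 17 calls, and Fasn, fatty acid synthase, ranged from 1334 to 31630 CPM in the knockout and from 1505 to 53190 CPM in Pparafl/fl. Cell cycle genes gave 0 of 33 calls and a median of 0.32 (-0.37 without knockout replicate 1, 0.76 without Pparafl/fl replicate 1), and 28 of 33 were under 0 without knockout replicate 1 against 6 of 33 with all libraries. Mki67, a nuclear protein of dividing cells, was 538, 21.5, 25.4, 126 and 113 CPM in the knockout, and 319, 29.4, 38.3, 64.7 and 75.8 CPM in Pparafl/fl, and replicate 1 of each genotype stood far above the rest. Its log2 fold change was 0.64 with all libraries and -0.56 without knockout replicate 1.

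Antioxidant genes gave 0 of 24 calls and 0 with an unadjusted p under 0.05. Cat, the peroxisomal catalase, was 757, 613, 502, 249 and 624 CPM in the knockout, and 725, 889, 1587, 539 and 717 CPM in Pparafl/fl. Gpx3, the secreted glutathione peroxidase, averaged 582 ± 331 CPM in the knockout and 1303 ± 818 CPM in Pparafl/fl (SD, n = 5 each), a log2 fold change of -1.16 (SE 0.59). Immediate early and heat shock genes gave 0 of 19 calls. Ccn2 and Ccn1, matricellular proteins, were at -1.10 (SE 0.58) and -0.92 (SE 0.52), and Hsp90aa1, a chaperone, at 0.26 (SE 0.21). Scd1, the stearoyl-CoA desaturase, averaged 19530 ± 15250 CPM in the knockout and 8107 ± 5382 CPM in Pparafl/fl (SD, n = 5 each), with a knockout SD larger than the difference between the means.

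**Figure D4:**
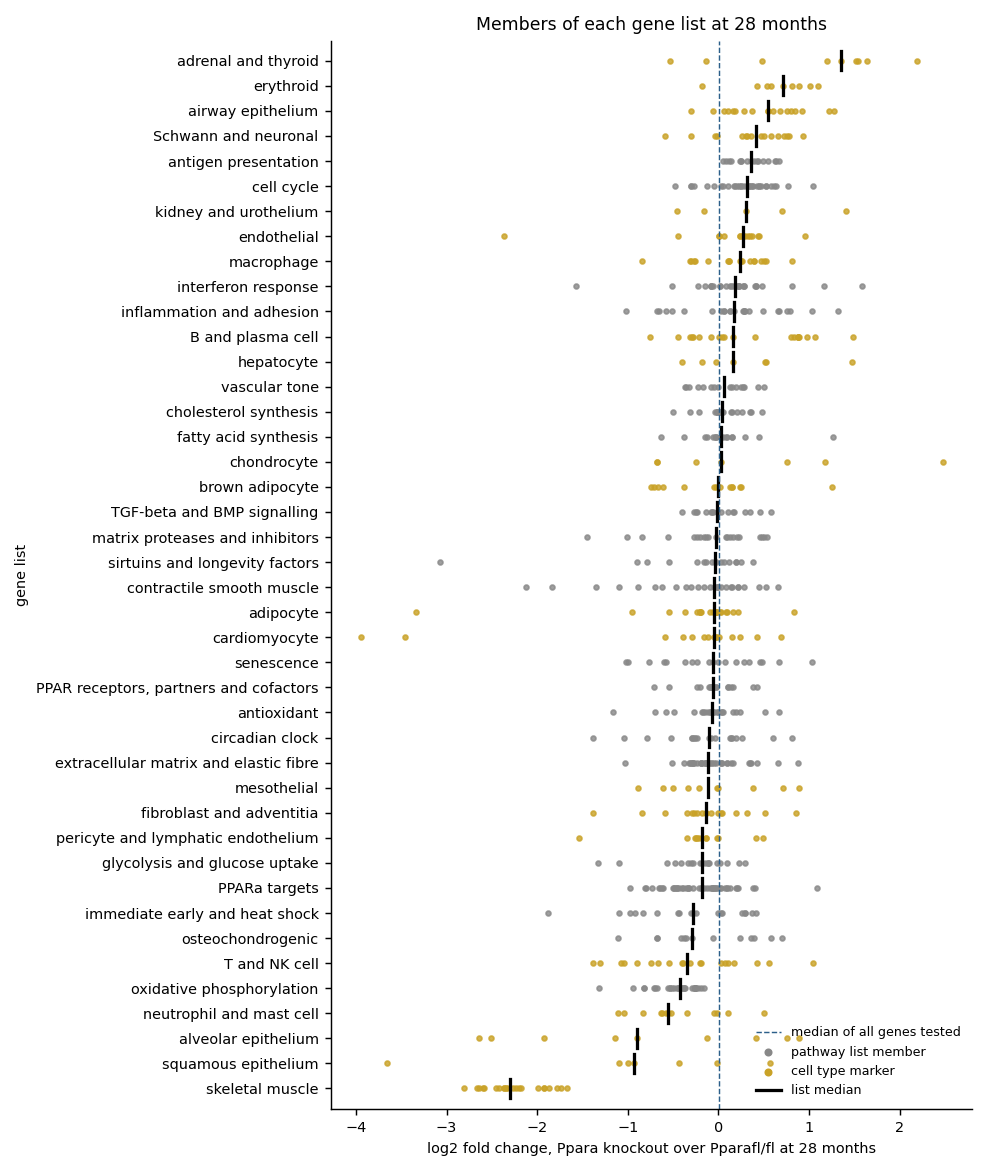
Log2 fold change of the knockout over Pparafl/fl at 28 months for each tested member of 42 gene lists (points; pathway lists grey, cell type markers yellow), with the list median (black bar) and the median of all genes tested (dashed line, 0.01). Skeletal muscle has a median of -2.30 with every member under 0, and no member of these lists passed the adjusted threshold.

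Markers of neighbouring tissues set libraries of the same genotype apart. The adrenal and thyroid list summed to 596, 37.3, 1446, 918 and 40.6 CPM in the knockout, and 31.3, 312, 45.8, 562 and 32.0 CPM in Pparafl/fl. Cyp11b1, the steroid 11β-hydroxylase of the adrenal cortex, was 67.2, 0, 209, 126 and 0 CPM in the knockout, and 0, 46.2, 0, 93.8 and 0 CPM in Pparafl/fl. It was present in 3 knockout and 2 Pparafl/fl libraries and at 0 in the others. Scgb1a1, the secretoglobin of airway club cells, was 337, 199, 440.1, 473 and 0.184 CPM in the knockout, and 28.8, 449, 786, 36.0 and 0.129 CPM in Pparafl/fl. Replicate 5 of each genotype was near 0. Adipocyte markers summed from 10470 to 50860 CPM in the knockout and from 15230 to 67200 CPM in Pparafl/fl, and B and plasma cell markers from 2397 to 27160 CPM in the knockout and from 3855 to 21190 CPM in Pparafl/fl. In the adipocyte list of 22 genes Lep, leptin, and Ghr, the growth hormone receptor, were lower at an unadjusted p under 0.05. Their log2 fold changes were -3.34 (SE 1.22) and -0.95 (SE 0.35). Over all genes tested, 1.98% were lower at such a p. The adipocyte list median was -0.05 (-0.22 without Pparafl/fl replicate 4, 0.07 without Pparafl/fl replicate 5). Star, which moves cholesterol into mitochondria for steroid synthesis, was 159, 21.2, 458, 314 and 18.6 CPM in the knockout, and 12.4, 47.4, 22.9, 115 and 14.2 CPM in Pparafl/fl. Its 5 highest libraries were those with Cyp11b1. Star and Slc5a5, the iodide transporter of the thyroid, had an unadjusted p under 0.05 and were higher, and 7 of the 9 genes tested had log2 fold changes over 0. The median of the adrenal and thyroid list was the highest of the 42 list medians. With each library left out in turn it stayed over 0, from 0.84 without knockout replicate 3 to 2.26 without Pparafl/fl replicate 4. Genes of a tissue share its amount in each library, so the 9 are not independent observations. The part of these tissues in the spread between libraries was not tested, and with the mean of the adipocyte or of the skeletal muscle markers as a covariate edgeR also called 0 genes.

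With each library left out in turn, 31 of the 42 list medians changed sign under at least 1 omission, so the medians of the remaining marker lists are given with the lowest and highest value so obtained. Endothelial markers had a median of 0.27 (0.11 without Pparafl/fl replicate 3, 0.39 without knockout replicate 4) and erythroid markers one of 0.71, which was 0.11 without knockout replicate 2 and 0.03 with the skeletal muscle covariate. Airway epithelium had 0.55 (0.20 without knockout replicate 3, 1.32 without Pparafl/fl replicate 2), and Schwann and neuronal markers 0.42 (0.21 without Pparafl/fl replicate 1, 0.60 without Pparafl/fl replicate 3). With each library left out in turn, these 4 kept their sign. Alveolar epithelium had -0.90 (-1.11 without knockout replicate 4, 0.92 without Pparafl/fl replicate 2) and squamous epithelium -0.93 (-1.28 without knockout replicate 3, 0.64 without Pparafl/fl replicate 3). Of the 10 libraries left out in turn, 1 changed the sign in each of these 2 lists, and the squamous median was also 0.28 with the skeletal muscle covariate. T and NK cell markers had -0.35 (-0.77 without knockout replicate 4, 0.03 without Pparafl/fl replicate 1), B and plasma cell markers 0.17 (-0.27 without knockout replicate 4, 0.62 without Pparafl/fl replicate 3), and neutrophil and mast cell markers -0.55 (-0.87 without Pparafl/fl replicate 1, 0.03 without Pparafl/fl replicate 3). Brown adipocyte markers had -0.00425 (-0.40 without knockout replicate 1, 0.25 without Pparafl/fl replicate 1), mesothelial markers -0.12 (-0.34 without Pparafl/fl replicate 5, 0.23 without Pparafl/fl replicate 2), and pericyte and lymphatic markers -0.18 (-0.31 without Pparafl/fl replicate 1, 0.12 without Pparafl/fl replicate 3). Hepatocyte markers had 0.16 (-0.17 without Pparafl/fl replicate 2, 0.38 without knockout replicate 2), and kidney and urothelium markers 0.30 (-0.19 without knockout replicate 2, 1.08 without Pparafl/fl replicate 3). Fibroblast and adventitia markers had -0.14 (-0.27 without Pparafl/fl replicate 3, 0.10 without Pparafl/fl replicate 2), with Scara5 lower at an unadjusted p under 0.05. Chondrocyte markers had 0.03 (-0.28 without knockout replicate 2, 0.29 without Pparafl/fl replicate 3). Of the 7 tested, Hapln1 and Cnmd were higher at such a p, as was Mbp, myelin basic protein, among the 16 Schwann and neuronal markers. Over all genes tested, 1.23% were higher at such a p. Kdr, the endothelial receptor of vascular endothelial growth factor, averaged 410.5 ± 93.9 CPM in the knockout and 302 ± 69.2 CPM in Pparafl/fl (SD, n = 5 each), and Gsn, gelsolin, 1193 ± 474 CPM in the knockout and 1193 ± 754 CPM in Pparafl/fl (SD, n = 5 each).

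Some genes were counted in some libraries and not in others of the same genotype. Protein-coding genes that reached 500 counts in 2 or more libraries numbered 218 with 1 exon and 12265 with several exons. In some library 159 of the 218 had 0 or 1 count, and 104 of the 12265 did. Leaving out a library gave at most 2 edgeR calls, and each was for a gene in which that library stood apart from its genotype. Cldn5, the claudin of endothelial tight junctions, had 0, 2202, 0, 0 and 0 counts in the knockout, and 1084, 1728, 1301, 2507 and 3487 counts in Pparafl/fl. Without knockout replicate 2 its adjusted p was 0.0255. Ier2, an immediate early gene, had 0, 0, 2373, 0 and 0 counts in the knockout, and 1055, 1766, 1608, 1773 and 1146 counts in Pparafl/fl. Without knockout replicate 3 its adjusted p was 0.00114. Chmp1b, a subunit of the membrane-remodelling ESCRT machinery, had 0, 0, 0, 0 and 0 counts in the knockout, and 2687, 2175, 3329, 1860 and 0 counts in Pparafl/fl. Without Pparafl/fl replicate 5 its adjusted p was 0.00473. All 3 genes have a single exon.

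In 3 genes with several exons a library also stood apart from its genotype. Clic4, a chloride intracellular channel protein, had 26781, 24991, 24524, 34155 and 24782 counts in the knockout, and 3968, 3756, 26545, 4629 and 4358 counts in Pparafl/fl. Pparafl/fl replicate 3 was at the level of the knockout, and without it the adjusted p was 0.000418. Ssr1, a protein of the translocon, had 15262, 12330, 13127, 20967 and 11221 counts in the knockout, and 2149, 12390, 4599, 2773 and 2369 counts in Pparafl/fl. Pparafl/fl replicate 2 was within the knockout range, and without it the adjusted p was 0.0411. Mfap3, a microfibril-associated protein, had 5246, 554, 605, 937 and 599 counts in the knockout, and 2066, 2657, 2447, 3076 and 2780 counts in Pparafl/fl. Knockout replicate 1 was above all Pparafl/fl libraries, and without it the adjusted p was 0.0119. The other call, Gm47583, has a single exon and was at 0 in knockout replicate 1 and in all 5 Pparafl/fl libraries.

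**Figure D5:**
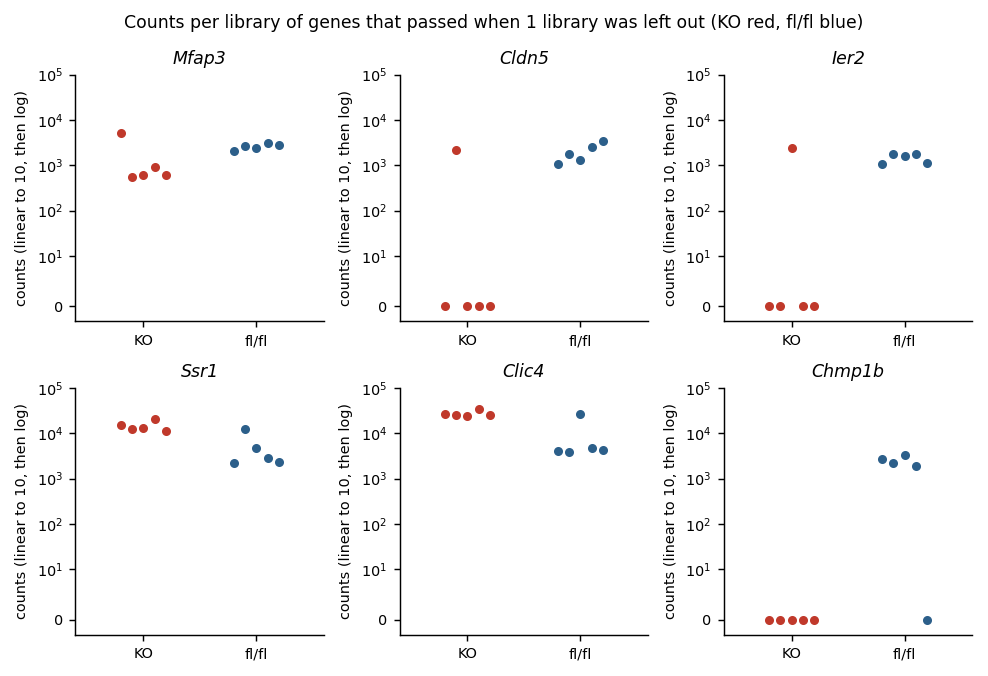
Counts per library of 6 genes that passed edgeR's test when 1 library was left out, knockout (red, KO) left of Pparafl/fl (blue, fl/fl); the axis is linear to 10 and logarithmic above. Cldn5 and Ier2 are at 0 in 4 of 5 knockout libraries, Chmp1b is at 0 in all 5, and Clic4 is high in all 5 knockout libraries and in 1 of Pparafl/fl.

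The authors' deposited table has 1104 genes with a p under 0.05 and a difference of at least 2-fold at 28 months. Of these, 407 have a single exon, beside 22323 of all 55421 deposited genes. At 0 counts in all 5 libraries of a genotype were 423 of the 1104. The filter used with edgeR was passed by 560, and 412 had an unadjusted edgeR p under 0.05. For Flrt3 the authors' deposited table gives a signed fold of 2.61 and for Ctdsp1 one of -2.10, negative meaning lower in the knockout.

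Whether the genotype difference at 28 months differed from that at 2 months was asked in a fit of 20 libraries. By edgeR 0 of 23624 genes (0%) passed, with a lowest adjusted p of 0.73, and 1432 had an unadjusted p under 0.05 (6.06%). DESeq2 called 480. In that fit the 2-month contrast alone had 1 call (0.00423%). The genotype differences at the 2 ages share no library. Across the 23624 genes, which are not independent replicates, their log2 fold changes had a Pearson r of 0.0132.

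Flrt3 at 2 months was 3.11, 2.69, 2.83, 1.10 and 2.26 CPM in the knockout, and 5.23, 1.06, 12.9, 9.25 and 7.65 CPM in Pparafl/fl. All 5 knockout libraries were below Pparafl/fl replicates 1, 3, 4 and 5 and above replicate 2, whereas at 28 months all 5 were above Pparafl/fl. The interaction was 2.98 on the log2 scale (SE 0.60, adjusted p of 0.73 in edgeR), and without Pparafl/fl replicate 2 at 2 months the adjusted p was 0.00651. Ctdsp1 at 2 months was 154, 122, 129, 63.0 and 63.5 CPM in the knockout, and 69.8, 72.9, 66.8, 66.6 and 57.7 CPM in Pparafl/fl. Knockout replicates 1 to 3 were above all Pparafl/fl libraries at that age, while at 28 months all 5 were below. Its interaction was -1.73 (SE 0.33, adjusted p of 0.73 in edgeR). For Ppara the interaction was 0.47 (SE 0.42). For the skeletal muscle markers the median at 2 months was 1.12 on the log2 scale. Of the 22, 9 had an unadjusted interaction p under 0.05 toward lower values at 28 months, where 3.18% of all genes had, and none passed adjustment. Other lists held such genes too. Of the 19 clock genes 6 had such a p, all toward lower values, with a median interaction of -0.773 and a 2-month median of 0.545. Of the 17 antigen presentation genes 4 had such a p, all toward higher values, beside 6.06% of all genes in either direction. Their list had a median interaction of 0.838 and a 2-month median of -0.478. None of these clock and antigen presentation genes passed adjustment either.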

How the data were processed

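Total RNA of entire aorta went into a stranded library kit, per the labels' protocols. How transcripts were selected is not given in the sources used here, and neither the strand setting of the counting nor the roles of the tools are stated, so overlapping and antisense genes cannot be told apart. HISAT, featureCounts 1.5.0-p3 and DESeq 1.8.3 on GRCm38 are named in the submitters' processing notes. The deposited values are raw read counts per gene, 1 column a library, per the file headers. The authors also deposited a p-value and a signed fold (treated as a score) per gene. All count columns matched a sample by name. Symbols that the tables held as dates, 27 in number, were restored from GENCODE by gene ID, and 55240 of 55421 genes matched that annotation, which gave exon numbers and positions.

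Counts of the 10 libraries were fitted in edgeR 4.0.16 (R 4.3.3) with TMM scaling, filterByExpr and the quasi-likelihood test, two-sided, with Benjamini-Hochberg adjustment over all genes tested and calls at an adjusted p under 0.05. The SE is the log2 fold change divided by the square root of the F statistic. The interaction used all 20 libraries. DESeq2 1.42.0, limma 3.58.1 (voom with quality weights), other filters, marker covariates and each library left out were alternatives. The steps were run on simulated data with known changes, and recovery was required only at a dispersion lower than that of these data. The power at the spread of these libraries is not given, so 0 calls do not show that no gene differed. Replicates of a genotype were not near-identical, with a lowest mean chi-square per gene of 236.8 between any pair. CPM are counts scaled by TMM to a library of 1000000. Depth was at least 50046288 counts a library, so the spread between libraries and not counting error limits most values.

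Genes were named by a rule: Ppara, the 12 largest called changes in each direction (none were called), then the 6 smallest unadjusted p in each direction with at least 50 counts on average and no clone or predicted name, per pathway list the 2 smallest p and the member with the most CPM, and per marker list the member with the most CPM. Some of these genes are not reported here. Further genes were named after their values were seen. The members and lists were chosen with earlier results of these data known, so no list has a test of its own.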

Additional observations from a re-analysis of the deposited data

Results flagged for a closer look

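Within each genotype at 28 months, 36 of 266 groups of 5 libraries had a library whose gap to the nearest other exceeded 0.71 of the group's range. For normally distributed values chance flags about 1 in 20 groups, and genes of the same list are not independent. The rule was applied to CPM and sums without a log transform, so the rate for these values may differ. Replicate 3 of the knockout stood apart from its genotype in March8, a ubiquitin ligase, at 82.44 CPM, in the tropomyosins Tpm2 at 180.2 CPM and Tpm1 at 389 CPM, in Krt4, an epithelial keratin, at 42.71 CPM and Rgs5, a pericyte marker, at 373 CPM. Its mitochondrial share was 0.91%, the highest of the knockout.

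Knockout replicate 4 had the highest knockout values of Vcam1, an adhesion receptor, at 421.7 CPM, of Il7r, the interleukin 7 receptor, at 216 CPM and of Igkc, the κ light chain, at 9936 CPM, and the lowest of Srebf2 at 117.9 CPM. Its summed levels were also highest, at 1265 CPM for inflammation and adhesion, 862.3 CPM for T and NK cell markers and 27160 CPM for B and plasma cell markers. Knockout replicate 1 was highest for Mki67 at 537.5 CPM, for Ucp1, the uncoupling protein of brown fat, at 2673 CPM and for the osteochondrogenic sum at 357.8 CPM. Knockout replicate 2 was highest for the erythroid sum at 2741 CPM, and knockout replicate 5 was highest for Elovl5, a fatty acid elongase, at 360 CPM.

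Pparafl/fl replicate 1 was highest of its genotype for Atp5b at 4866 CPM, Mki67 at 319 CPM, Birc5, survivin, at 10.93 CPM, Ank, a pyrophosphate transporter, at 189.9 CPM and Kit, a receptor of mast cells, at 78.39 CPM. Its sums were 1768 CPM for the cell cycle, 304.8 CPM for osteochondrogenic genes and 934.2 CPM for T and NK cell markers. Pparafl/fl replicate 3 had a mitochondrial share of 7.55% and the most counts of its genotype, 71172745. It was highest for Krt4 at 621.8 CPM, Igkc at 10140 CPM and Pde5a at 68.68 CPM and lowest for Icam1 at 22.1 CPM. Its sums were 21190 CPM for B and plasma cell, 454.6 CPM for neutrophil and mast cell and 877.9 CPM for squamous epithelium markers. Pparafl/fl replicate 2 had an alveolar epithelium sum of 145.6 CPM.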

How the results depend on the processing

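The count of genes called higher and lower in the knockout was 0 and 0 by edgeR, and 113 and 123 by the DESeq2 Wald test. For the interaction edgeR called 0 genes and the DESeq2 Wald test 480. The cause of that difference was not tested, and of the 236 genes called by DESeq2 at 28 months 157 were at 0 in all 5 libraries of a genotype. With each library left out in turn, edgeR called 0 to 1 genes higher, 0 to 1 lower and 0 to 1 for the interaction. DESeq2's size factors, limma voom, no filter on low counts, a mean of at least 50 counts, a fit of 20 libraries, both marker covariates and genes with more than 1 exon also gave 0 calls at 28 months, with lowest adjusted p from 0.111 (voom) to 1. Of 1746 values of the 92 genes named by the rule, 1655 kept direction and side of the threshold, 13 passed it, all under the DESeq2 Wald test, and 78 in 28 genes changed sign. For 23 of those 28 the fold change with all libraries was within 1 SE of 0. With DESeq2's size factors the log2 fold change was of the opposite sign for Fasn at -0.007662. By the DESeq2 Wald test the log2 fold change was of the opposite sign for Fasn at -0.00752. By limma voom the log2 fold change was of the opposite sign for Vcam1 at -0.4634, Insig1 at 0.2251, Ank at 0.05708, Il7r at -0.4471, Gsn at 0.1192, Bpifa1 at -0.2152, Napsa at -0.2064, Cyp2e1 at 0.01795 and Lrp2 at 0.05145. With no filter on low counts the log2 fold change was of the opposite sign for Gsn at 0.004505. With a mean of at least 50 counts the log2 fold change was of the opposite sign for Fasn at -0.02429. With the adipocyte covariate the log2 fold change was of the opposite sign for Vcam1 at -0.1991, Insig1 at 0.1079, Ank at 0.04065, Il7r at -0.2058, Gsn at 0.2223 and Krt4 at 0.005057. With the skeletal muscle covariate the log2 fold change was of the opposite sign for Ctsb at -0.1895, Mki67 at -0.1913, Ifi27 at -0.7151, Scd1 at -0.09977, Fasn at -1.36, Hsp90aa1 at -0.03358, Bmpr2 at 0.2386, Kit at -0.2855, Ucp1 at -0.7294, Myh6 at 0.3943 and Hbb-bs at -0.256. Among genes with more than 1 exon the log2 fold change was of the opposite sign for Fasn at -0.002896. Ttn, at 0.03035 with the skeletal muscle covariate, is itself among the markers averaged into it, so its value near 0 follows from the construction. With a library left out it ran for Ppara from -0.09108 to 0.2256, Ctsb from -0.04374 to 0.3376, Vcam1 from -0.6586 to 0.3035, Mki67 from -0.5617 to 1.661, Ifi27 from -0.1963 to 0.6294, H2-D1 from -0.01197 to 0.3477 and Nr1d2 from -0.08437 to 0.278. It ran for Atp5b from -0.5927 to 0.01452, Insig1 from -0.6202 to 0.3376, Fasn from -0.2698 to 0.8018, Ank from -0.4028 to 0.3299, Il7r from -0.6527 to 0.3991, Igkc from -1.468 to 0.7367 and Kit from -0.1388 to 0.2475. It also ran for Ucp1 from -0.7904 to 0.9683, Myh6 from -0.7755 to 0.6184, Gsn from -0.225 to 0.3418, Dbh from -0.01262 to 0.873, Hbb-bs from -0.05848 to 1.011, Krt4 from -6.203 to 3.81 and Lrp2 from -0.4223 to 0.5003. Of the 42 list medians, 31 changed sign with some library left out. The median of oxidative phosphorylation ran from -0.636 to 0.0169 and that of glycolysis from -0.437 to 0.161, and the cell cycle median was -0.133 with the skeletal muscle covariate. Other than for Ttn, the cause of these changes was not tested. The skeletal muscle level was mostly lower in the knockout, so fits with that covariate cannot tell genotype and muscle content apart. No paired analysis was possible because the labels give no replicate numbers shared between the genotypes. Depth limits only genes near 0 counts, whose level in such a library was not measurable.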
